A study of Mus musculus with 22 samples.

Results

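The genes described here are 10 genes that mark fat cells or build their lipid stores: Pparg, Cebpa, Fabp4, Cd36, Lpl, Plin1, Plin4, Cidec, Adipoq and Lep. Each was found by an exact match of its gene symbol, and all 10 were among the 34866 genes of the chondrocyte culture tables. Of these genes, 8 were listed among the 23911 genes of the cartilage table, and Plin4 and Lep were not listed there. RNA had been sequenced in 22 mouse samples that fell into 6 groups. Control mice carried the Dnmt1 flox allele (a Dnmt1 gene flanked by recombination sites), with no zygosity given in the labels. The conditional knockout (cKO) was Prrx1-Cre;Dnmt1 flox/flox, in which the Prrx1 promoter drives the Cre recombinase in limb mesenchyme, so chondrocytes and the other descendants of those cells can lose Dnmt1. Primary chondrocytes from knee articular cartilage of mice at postnatal days 3 to 5 gave 3 control and 3 cKO cultures without treatment (day 0). A further 4 control and 4 cKO cultures had received the growth factor BMP2 for 3 days, at a concentration labelled 100 ng/µl (day 3). Cartilage treated with collagenase, from mice at postnatal day 5, gave 4 samples labelled flox (control) and 4 labelled cKO, with 2 males and 2 females in each. The labels do not say which cultures came from separate animals, so the p-values measure the spread between these samples.

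As background, Pparg encodes the nuclear receptor that switches on the fat cell program, and Cebpa encodes a transcription factor that sustains it. Fabp4 carries fatty acids in the cytosol, Cd36 takes them up at the cell surface and Lpl releases them from circulating triglyceride outside the cell. Plin1 and Plin4 coat lipid droplets, Cidec fuses them into large droplets, and Adipoq and Lep encode the hormones adiponectin and leptin. Several of these genes are not particular to fat cells: Cd36 and Fabp4 are also known from endothelial cells and macrophages, and Lpl from muscle. Mesenchymal progenitors can become cartilage, bone, muscle or fat, and Dnmt1 is the enzyme that copies DNA methylation at CG dinucleotides (CpGs) when a cell divides.

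Because CpGs are the sites on which Dnmt1 acts, the 250 bases upstream of annotated start sites were read from RefSeq for the build GRCm38.p6, and 5 windows are shown, covering 2 regulators, 1 droplet protein, 1 hormone and 1 fatty acid receptor. Each is written 5′ to 3′ on the strand of its gene, with CpGs in capitals. The windows are Pparg at chr6:115421816-115422065 (plus strand, the start of one of its shorter transcripts), Cebpa at chr7:35119043-35119292 (plus strand), Plin4 at chr17:56109783-56110032 (minus strand), Adipoq at chr16:23146286-23146535 (plus strand) and Cd36 at chr5:17835897-17836146 (minus strand).
Pparg: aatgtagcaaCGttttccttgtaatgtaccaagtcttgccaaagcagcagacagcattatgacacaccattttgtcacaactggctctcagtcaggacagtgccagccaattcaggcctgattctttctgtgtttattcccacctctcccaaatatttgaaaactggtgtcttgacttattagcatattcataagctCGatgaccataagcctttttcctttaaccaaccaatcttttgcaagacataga
Cebpa: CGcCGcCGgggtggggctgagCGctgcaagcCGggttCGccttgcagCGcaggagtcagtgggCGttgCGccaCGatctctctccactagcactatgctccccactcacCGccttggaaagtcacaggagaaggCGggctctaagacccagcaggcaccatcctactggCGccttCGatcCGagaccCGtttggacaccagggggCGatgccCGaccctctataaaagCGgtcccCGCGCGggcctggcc
Plin4: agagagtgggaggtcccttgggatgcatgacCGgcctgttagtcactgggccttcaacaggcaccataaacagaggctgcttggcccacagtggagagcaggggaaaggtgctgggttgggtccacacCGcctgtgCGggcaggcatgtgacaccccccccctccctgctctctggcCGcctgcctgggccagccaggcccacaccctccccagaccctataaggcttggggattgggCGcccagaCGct
Adipoq: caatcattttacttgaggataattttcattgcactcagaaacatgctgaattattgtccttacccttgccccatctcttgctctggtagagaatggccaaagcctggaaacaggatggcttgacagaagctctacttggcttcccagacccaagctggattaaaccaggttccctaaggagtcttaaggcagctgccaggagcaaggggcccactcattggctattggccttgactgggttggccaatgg
Cd36: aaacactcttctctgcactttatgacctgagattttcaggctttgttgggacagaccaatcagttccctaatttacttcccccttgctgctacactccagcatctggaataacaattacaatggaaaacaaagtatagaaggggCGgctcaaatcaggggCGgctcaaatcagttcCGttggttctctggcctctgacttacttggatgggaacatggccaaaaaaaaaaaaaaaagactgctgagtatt
The Cebpa window held 22 CpGs, the Plin4 window 6, the Cd36 window 3, the Pparg window 2 and the Adipoq window 0. Over all 32851 windows of the same length in the table, the median was 6 CpGs, with quartiles at 2 and 16. Pparg had 2 further start windows, which held 38 and 12 CpGs, and the single Lep window held 16. Of all windows, 98.4% held at most as many CpGs as the Pparg window with 38, and 7.87% held as few as the Adipoq window. Each window was searched on both strands for the letters AGGTCANAGGTCA, a full binding element of the receptor encoded by Pparg, and for the core AGGTCA, which the full element contains. Windows were available for 8 members, and Fabp4 and Lpl had none. None of the members' windows held the full element, which was in 0.0335% of all windows. The Cd36 window and 2 of the 3 Pparg windows held the core, as did 14% of all windows. CCAAT, searched in the same way, occurred in the Pparg, Plin4, Adipoq and Cd36 windows printed above, and in 33.8% of all windows. These matches describe letters only, and no methylation was measured in these samples.

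The total count per library was 41749327 to 51741478 at day 0, 14434197 to 18918714 at day 3 and 1100198 to 1888896 in cartilage. Levels are given as CPM (counts scaled to a common library size) after TMM scaling, and a gene with at most 3 counts in a library is called at the floor, equal to 0.0582 to 0.0721 CPM in day 0 libraries, 0.148 to 0.206 CPM in day 3 libraries and between 1.54 and 2.75 CPM in those of cartilage. Floors and counting intervals cover counting error only. Dnmt1 itself was at 158 ± 6.88 CPM (SD, n = 3) in control and 29 ± 3.26 CPM (n = 3) in cKO cultures at day 0, and at 69 ± 8.53 and 25.8 ± 11.6 CPM (n = 4 each) at day 3. In cartilage it was at 42.5 ± 6.18 CPM in control and 13.2 ± 1.09 CPM in cKO samples (n = 4 each). The 8 chondrocyte markers were all above the floor in every library except those of the day 3 cKO group, where 7 were, and their summed level was 85900 to 107000 CPM in day 3 control and 1130 to 15900 CPM in day 3 cKO cultures. The 8 skeletal muscle markers summed to 1.37 to 1.8 CPM in day 3 control and 141 to 1810 CPM in day 3 cKO cultures. Replicate 4 of the day 3 cKO group stood apart from its group, since its counts differed from those of the other replicates with a chi-square over its degrees of freedom between 123.9 and 138.4, where their own pairs gave between 7.424 and 10.88. It had the lowest summed chondrocyte markers (1130 CPM) and the lowest summed muscle markers (141 CPM) of the cKO cultures at day 3. Its Dnmt1 was also the lowest of them, at 10.9 CPM against 34.3, 35.6 and 22.2 CPM in replicates 1, 2 and 3. Results that rest on replicate 4 are given with and without it. In bulk samples a change in the share of cells that make a transcript and a change in its level per cell cannot be told apart.

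Of the genes that define or feed lipid storage, 4 were higher in cKO than in control cultures at day 0: Pparg, Cebpa, Fabp4 and Plin4. None was lower. At day 3 the cKO cultures were higher in Fabp4, Cd36, Plin4 and Pparg and lower in Lpl. In cartilage none was called. At day 0, 7 of the 10 genes had enough counts to be tested and 4 were called higher at an adjusted p under 0.05 by edgeR's quasi-likelihood test, beside 33.0% called higher, 31.6% called lower and 64.5% called in either direction among all 15530 genes tested. Their median log2 fold change was 1.18, and that of all genes tested was 0.01. In 5 of the 7, control and cKO libraries did not overlap, as in 70.4% of all genes tested. Plin1, among these 5, had enough counts to be tested only through its cKO cultures, so the day 0 counts and median are a description. At day 3, 6 members were tested, of which 4 were called higher and 1 lower, beside 25.5% called higher, 22.6% called lower and 48.1% called in either direction among 13924 genes. The median over these 6 was 1.22, beside 0.01 over all genes, and 3 of the 6 had groups that did not overlap, as in 47.9% of all genes tested. Cd36 entered these day 3 counts and their median only through its high cKO cultures, so they are a description. The counts also moved with single libraries: without cKO replicate 2, 3 members were called at day 3 (Fabp4, Plin4 and Cd36), and without cKO replicate 4, 7 were, Cebpa and Plin1 among them.

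**Figure D1:**
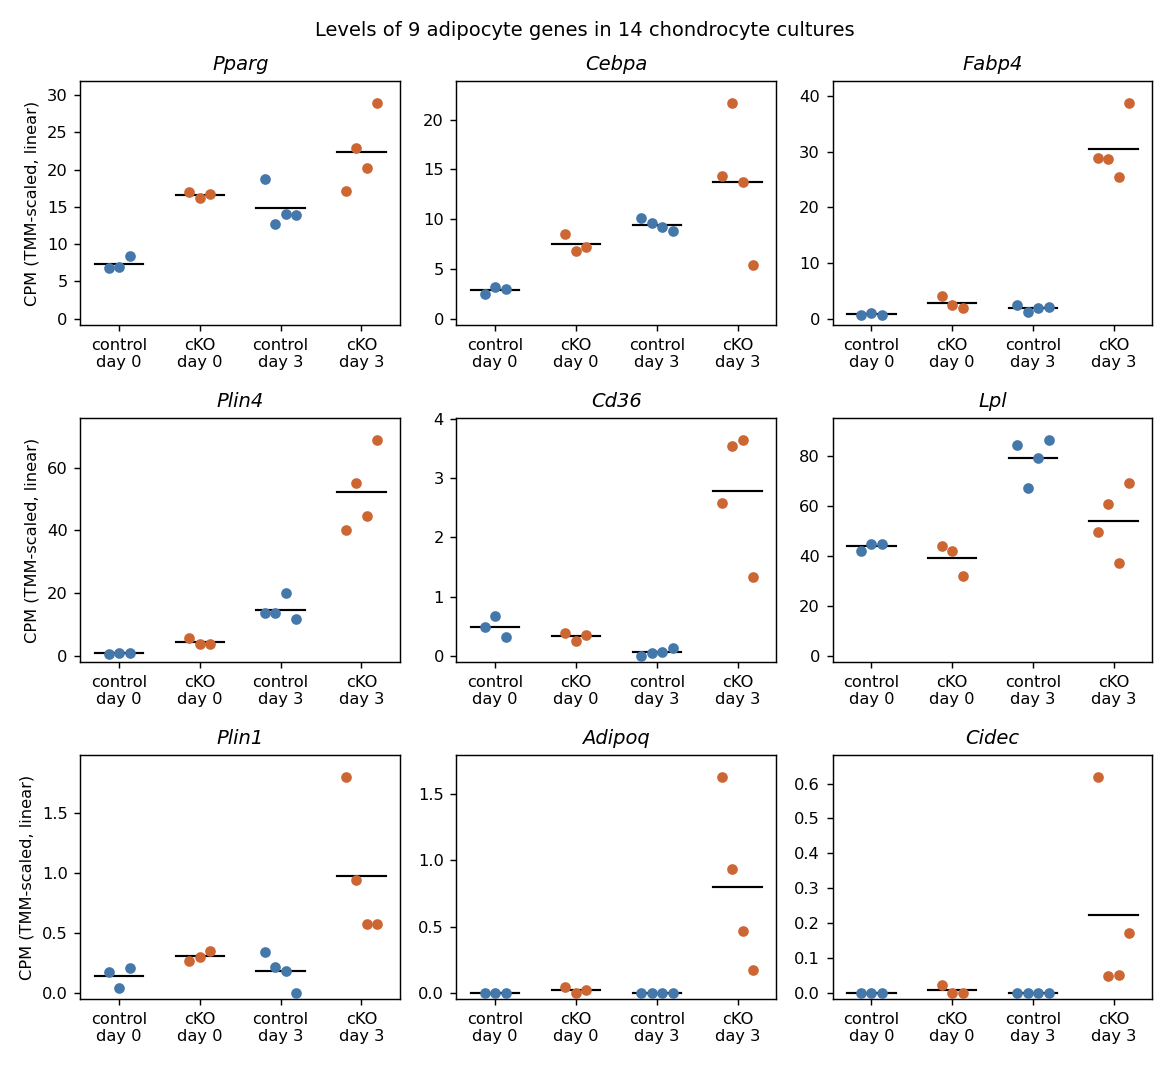
Levels of the 9 detected members in the 14 cultures, in TMM-scaled CPM on linear axes that differ between panels; each point is 1 culture, and the line is the mean of its group (3 cultures a group at day 0, 4 at day 3). Fabp4 lay between 25.4 and 38.8 CPM in day 3 cKO cultures and at most at 4.16 CPM in every other culture, while Lpl was highest in day 3 control cultures.

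Pparg (chr6:115360951-115490399, plus strand, GRCm38) was the more abundant of the regulators by mean CPM per kilobase in each culture group. At day 0 it was at 6.77, 6.93 and 8.36 CPM in the 3 control cultures and at 17, 16.2 and 16.7 CPM in the 3 cKO cultures. Every cKO culture lay above every control culture, and the fitted difference was 2.26-fold (log2 1.18, SE 0.0873, adjusted p = 3.58e-06). At day 3 Pparg was at 18.8, 12.7, 14.1 and 13.9 CPM in control and at 17.2, 22.9, 20.2 and 29 CPM in cKO cultures. The groups overlapped at day 3, because control replicate 1 lay above cKO replicate 1. The day 3 difference was 1.52-fold (log2 0.61, SE 0.187, adjusted p = 0.026). It lost its call without cKO replicate 2 (adjusted p = 0.0543) and without control replicate 2, 3 or 4 (0.0764, 0.0644 and 0.0711), and it was log2 0.44 (adjusted p = 0.0265) without cKO replicate 4, the highest culture.

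Cebpa (chr7:35119293-35121928, plus strand) is a gene with a single exon that shares 51 exonic bases with the antisense gene Gm45091, and whether the counts used strand is not given in the sources used here. At day 0 it was at 2.47, 3.23 and 2.96 CPM in control and at 8.46, 6.84 and 7.18 CPM in cKO cultures. Again no cKO culture fell within the control range, and the difference was 2.59-fold (log2 1.37, SE 0.13, adjusted p = 1.66e-05). At day 3 the control cultures were at 10.1, 9.61, 9.25 and 8.77 CPM, and the cKO cultures at 14.3, 21.7, 13.7 and 5.36 CPM. Here 3 cKO cultures lay above all controls and replicate 4 lay below all of them. The day 3 difference was not called (log2 0.55, SE 0.335, adjusted p = 0.204), and without cKO replicate 4 it was log2 0.81 (adjusted p = 0.00213).

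Fabp4 (chr3:10204088-10208576, minus strand) had the widest contrast between genotypes of the well-counted members at day 3, while at day 0 that of Plin4 was wider. It was at 0.743, 1.1 and 0.693 CPM in day 0 control cultures and at 4.16, 2.39 and 2 CPM in day 0 cKO cultures. The groups did not overlap, and cKO was 3.33-fold higher (log2 1.73, SE 0.309, adjusted p = 0.000927). At day 3 Fabp4 was at 2.47, 1.14, 1.86 and 2.04 CPM in control and at 28.9, 28.7, 25.4 and 38.8 CPM in cKO cultures. All cKO cultures lay far above all controls, and the fitted difference was 16.5-fold (log2 4.05, SE 0.242, adjusted p = 1.07e-05). Without cKO replicate 4, the highest, it was log2 3.90 (adjusted p = 3.21e-07). The genotype difference was larger at day 3 than at day 0 by 2.29 on the log2 scale (interaction, SE 0.417, adjusted p = 0.00311).

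Cd36 (chr5:17781690-17888801, minus strand) separated the genotypes at day 3 and not at day 0. At day 0 it was at 0.481, 0.676 and 0.323 CPM in control and at 0.384, 0.253 and 0.349 CPM in cKO cultures, which overlapped (log2 -0.59, SE 0.34, adjusted p = 0.156). At day 3 the 4 control cultures held 0, 1, 1 and 2 counts, all at the floor, and the cKO cultures held 46, 72, 70 and 23 counts, or 2.59, 3.55, 3.65 and 1.33 CPM. Summed over libraries, 211 counts in cKO against 4 in control gave a depth-corrected ratio of 45.9 (exact 95% counting interval 17.7 to 170), and the edgeR test gave an adjusted p of 0.000154. Cd36 passed the filter on low counts at day 3 only through the cKO cultures, where it was high, so the filter itself favoured a difference. The interaction was called (log2 5.99, SE 0.723, adjusted p = 0.000265), although its size depends on the prior count, since control was at the floor at day 3. Replicate 4, with the lowest summed chondrocyte and muscle markers, had the lowest Cd36 of the cKO cultures, and without it the call held (adjusted p = 7.75e-06).

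Lpl (chr8:68880491-68907448, plus strand) went the other way. At day 0 it was at 42, 44.6 and 44.8 CPM in control and at 44.1, 41.9 and 31.9 CPM in cKO cultures, with overlapping groups and no call (log2 -0.16, SE 0.105, adjusted p = 0.206). At day 3 the control cultures were at 84.3, 67, 79.1 and 86.5 CPM and the cKO cultures at 49.6, 60.6, 37.1 and 69.2 CPM. Only cKO replicate 4 reached the control range. Lpl was called lower in cKO at day 3 (log2 -0.53, SE 0.185, adjusted p = 0.042). The call was lost when cKO replicate 1, 2 or 3 was left out (adjusted p = 0.0976, 0.06 and 0.0598) or control replicate 1, 3 or 4 (0.0888, 0.0772 and 0.0971). Without cKO replicate 4 it was log2 -0.69 (adjusted p = 0.00406). The deposited Lpl values were not whole numbers in any of the 14 cultures, nor were those of Plin1 in 9 and of Fabp4 in 5, so these are estimated counts.

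Plin4 (chr17:56100591-56109803, minus strand), which shares 17 exonic bases with Hdgfl2 on the opposite strand, was higher in cKO at both days. At day 0 it was at 0.721, 0.972 and 0.855 CPM in control and at 5.62, 3.88 and 3.69 CPM in cKO cultures. At day 3 it was at 13.8, 13.5, 20.1 and 11.6 CPM in control and at 40.2, 55.1, 44.6 and 68.9 CPM in cKO cultures. Control and cKO did not overlap at either day. The differences were 5.13-fold at day 0 (log2 2.36, SE 0.209, adjusted p = 1.09e-05) and 3.58-fold at day 3 (log2 1.84, SE 0.223, adjusted p = 0.000297), and the difference between them was not called (log2 -0.54, SE 0.34, adjusted p = 0.312).

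Plin1, the droplet coat protein most particular to fat cells (chr7:79720218-79732903, minus strand), was counted far less often. It held 8, 2 and 9 counts in day 0 control and 11, 13 and 18 in day 0 cKO cultures, with no overlap in CPM and no call (log2 1.11, SE 0.472, adjusted p = 0.0648). It passed the filter on low counts at day 0 only through the cKO cultures. At day 3 it held 5, 4, 3 and 0 counts in control and 32, 19, 11 and 10 in cKO cultures. It did not pass the filter on low counts at day 3. In a fit without that filter the day 3 difference was log2 2.35 with an adjusted p of 0.0238, where 30.2% of 22836 genes were called. Cidec (chr6:113424634-113435760, minus strand) had 0 counts in all 7 control cultures and 1, 0 and 0 counts in day 0 cKO cultures. In day 3 cKO cultures it had 11, 1, 1 and 3 counts, so 3 of the 4 libraries were at the floor. Its mean in day 3 cKO cultures was at least 1.2-fold higher than the floor of the controls (3 counts per library), and the fit without the filter gave an adjusted p of 0.0551.

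The hormone genes were also rarely counted. Adipoq (chr16:23146536-23158028, plus strand) had 0 counts in all 7 control cultures, 2, 0 and 1 counts in day 0 cKO cultures, and 29, 19, 9 and 3 counts in day 3 cKO cultures. It was therefore counted in every day 3 cKO library and in no control library, and replicate 4 was again the lowest. At day 3 it was at least 4.3-fold higher in cKO than the floor of the controls (3 counts per library). It was too low for the main test, and the fit without the filter gave an adjusted p of 0.00725. Lep (chr6:29060220-29073877, plus strand) had 0 counts in all 14 cultures. The control cultures thus held no detectable Adipoq or Lep transcript at this depth, which leaves aside other fat cell hormones. The genes described here are named after fat cells without the cultures being labelled as such.

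Markers of other cells moved with genotype beside these genes. At day 0, where Pparg, Cebpa, Fabp4 and Plin4 were higher in cKO, the 8 chondrocyte markers summed to 136000 to 144000 CPM in control and 48800 to 59600 CPM in cKO cultures, and the 8 muscle markers to 6.61 to 7.42 and 42.6 to 54.6 CPM. Of 5 muscle markers tested, 4 were called higher, among them Des (12.1-fold, adjusted p = 3.03e-08). The 8 macrophage markers summed to 1.86 to 2.61 CPM in control and 4.21 to 5.74 CPM in cKO cultures. Of 4 tested, Cd14 (3.72-fold), Csf1r (2.46-fold) and Ptprc (0.142 ± 0.121 CPM in control and 0.515 ± 0.261 in cKO, SD, n = 3) were called higher. Lyz2 was at 1.16 ± 0.4 CPM in control and 1.09 ± 0.638 CPM in cKO cultures. At the floor in every library were 4 of the 8 macrophage markers in control and 3 in cKO cultures. The 8 endothelial markers summed to 3.74 to 4.33 CPM in control and 5.38 to 5.79 CPM in cKO cultures, with Tek 13.3-fold and Pecam1 1.59-fold higher and Egfl7 at 0.683 of control among 3 tested, all called. Of the 8, 3 in control and 2 in cKO cultures were at the floor in every library, and Gpihbp1 was at 0 in both. The 6 fibroblast and adipose progenitor markers summed to 441 to 444 CPM in control and 285 to 383 CPM in cKO cultures. Of these 6, 2 were called higher and 3 lower. The 4 marrow stromal markers summed to 70.1 to 73.6 and 95.1 to 106 CPM (3 higher, 1 lower). The 7 brown or beige adipocyte markers summed to 23.5 to 23.8 and 17.6 to 21.3 CPM (2 of 5 tested higher, 3 lower). Among all genes tested, 33.0% were called higher and 31.6% lower. The part of these cells in the day 0 differences was not tested.

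At day 3 the endothelial markers summed to 6.43 to 8.91 CPM in control and 3.81 to 5.06 CPM in cKO cultures. Most of that sum was Egfl7, at 6.41 ± 0.945 CPM in control and 2.87 ± 0.592 CPM in cKO (SD, n = 4), while Pecam1 was at 0.636 ± 0.33 and 1.06 ± 0.138 CPM. In each genotype 2 of the 8 were above the floor in every library, and Gpihbp1 and Emcn were at 0 in both. The macrophage markers summed to 5.69 to 7.77 CPM in control and 6.81 to 12.5 CPM in cKO cultures. Of 3 tested, Csf1r (10.2-fold, adjusted p = 0.000143) and Cd14 (2.16-fold, adjusted p = 0.0282) were called higher in cKO and Lyz2 was not called (log2 -0.57, adjusted p = 0.176), while C1qa, C1qb and C1qc were at 0 in both. The 7 brown or beige adipocyte markers summed to 21.8 to 29.8 CPM in control cultures, to 16.1 CPM in cKO replicate 4 and to 32.6 to 37.3 CPM in the other cKO cultures. Of 3 tested, only Dio2 was called, 5-fold higher in cKO (adjusted p = 0.000816), and their median log2 difference was -0.45. Dio2 was at 2.85 ± 1.14 CPM in control and 14.2 ± 4.64 CPM in cKO (SD, n = 4). Prdm16 went the other way, at 19.8 ± 2.55 and 14.4 ± 3.98 CPM. Of the muscle markers, 1 of 8 in day 3 control and 7 of 8 in day 3 cKO were above the floor in every library. Replicate 4, with muscle markers at 141 CPM against 1070 to 1810 CPM in the other cKO cultures, had the highest Fabp4, Plin4, Pparg and Lpl of the cKO group and the lowest Cebpa, Cd36 and Adipoq. The fibroblast and adipose progenitor markers summed to 520 to 882 CPM in control and 335 to 722 CPM in cKO cultures at day 3. Of 4 tested, 1 was called higher and 1 lower. The marrow stromal markers summed to 161 to 247 and 116 to 298 CPM, and of 4 tested 1 was called higher and 1 lower. Among all genes tested, 25.5% were called higher and 22.6% lower. The part of any of these cells in the day 3 differences was not tested.

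The change from day 0 to day 3 combines time, BMP2 and a separate count table, which cannot be told apart. In control cultures 7 members were tested, 5 were called higher at day 3 and 1 lower, beside 28.1% called higher, 28.8% called lower and 56.9% called in either direction of 14909 genes. The days did not overlap in 6 of the 7, as in 64.0% of all genes tested. Plin4 rose most, 17.3-fold (log2 4.11, SE 0.276, adjusted p = 1.42e-07), followed by Cebpa at 3.27-fold, Fabp4 at 2.19-fold, Pparg at 2.02-fold and Lpl at 1.81-fold (adjusted p from 0.000256 to 0.00947). Cd36 fell in control cultures, from 68 summed counts at day 0 to 4 at day 3, a depth-corrected ratio of 8.08 (exact 95% counting interval 3.02 to 30.5, adjusted p = 0.00138). Plin1 was not called (log2 0.39, SE 0.747, adjusted p = 0.684). The median log2 change of the 7 was 1.01, beside 0.00 over all genes.

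In cKO cultures all 7 members tested were called higher at day 3, beside 32.4% of 14909 genes called higher and 62.2% called in either direction. The days did not overlap in 5 of the 7, as in 62.5% of all genes tested. Plin4 rose 11.9-fold (log2 3.57, SE 0.246, adjusted p = 1.66e-07), Fabp4 10.7-fold (log2 3.42, SE 0.289, adjusted p = 7.95e-07) and Cd36 8.38-fold (log2 3.07, SE 0.417, adjusted p = 3.87e-05). Smaller rises were called for Plin1 (log2 1.66, SE 0.551, adjusted p = 0.0189), Cebpa (0.88, SE 0.312, 0.0257), Lpl (0.46, SE 0.177, 0.0368) and Pparg (0.42, SE 0.165, 0.0392). These 4 smaller calls were sensitive to single libraries. The count fell to 4 without day 0 cKO replicate 2, without day 3 cKO replicate 1 and without day 3 cKO replicate 2, and it was 5 without day 3 cKO replicate 4. Adipoq went from 3 to 60 summed counts, a ratio of 36.7 (exact 95% counting interval 12 to 183), and Cidec from 1 to 16, a ratio of 29.3 (4.56 to 1230). The median over the 7 tested was 1.66, beside 0.02 over all genes. Cd36 and Plin1 passed the filter on low counts in this fit only through the day 3 cKO cultures, where they were high. The filter favoured a rise for these genes, so the count and the median are a description.

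Whether the genotypes differed in this change was tested as the interaction, in which 2 of 7 members were called, both higher, beside 16.8% of 14909 genes called (9.94% higher). These were Fabp4 and Cd36, described above: Cd36 fell with time in control cultures and rose in cKO cultures. Cd36 and Plin1 entered this fit only through the day 3 cKO cultures, where they were high, so these counts are a description. The other interactions were log2 -0.59 for Pparg (SE 0.235, adjusted p = 0.11), -0.83 for Cebpa (0.443, 0.228), 1.27 for Plin1 (0.932, 0.393) and -0.39 for Lpl (0.248, 0.315), none called. Without day 3 cKO replicate 4 the Pparg interaction was -0.73 with an adjusted p of 0.0113. The comparisons of 1 day and of 1 genotype share libraries, so their values are set side by side and not counted as separate evidence.

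**Figure D2:**
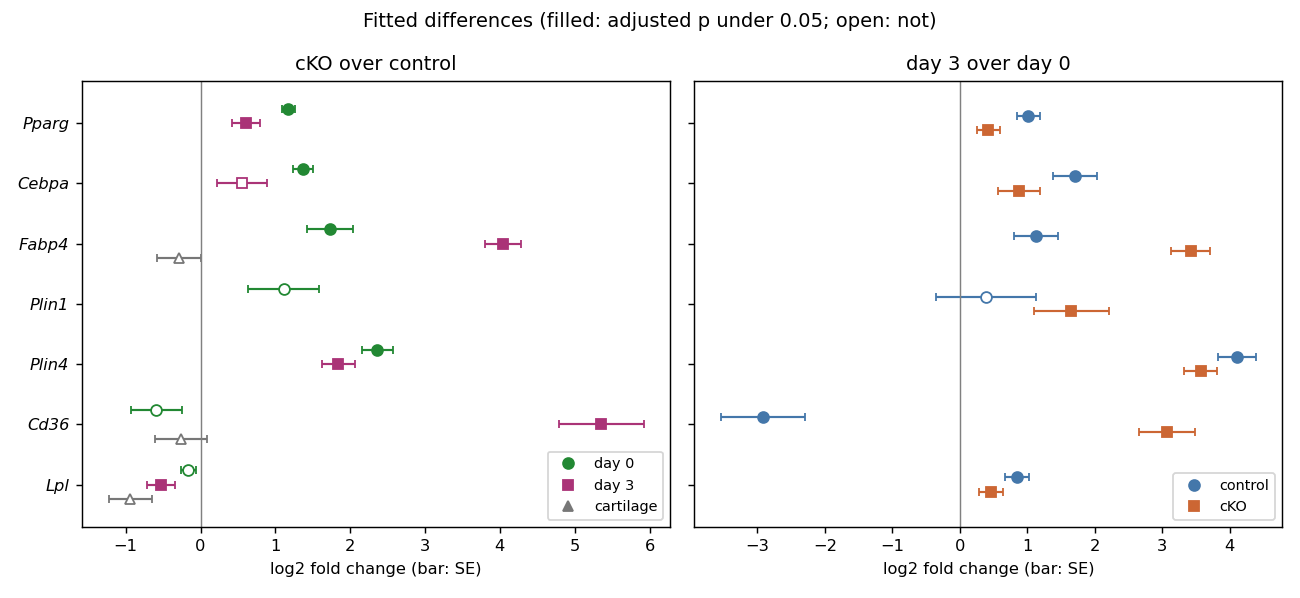
Fitted log2 fold changes (x axis, bars ± 1 SE) of the 7 members tested in at least 1 comparison, cKO over control on the left and day 3 over day 0 on the right; filled symbols have an adjusted p under 0.05. Fabp4 and Cd36 lie at log2 4.05 and 5.35 at day 3 on the left, and Cd36 falls in control (-2.92) and rises in cKO (3.07) on the right.

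The order of the genes was compared per length, as CPM per kilobase of transcript. In day 0 control cultures Lpl led (10.6 ± 0.378, SD, n = 3), followed by Pparg (4.03 ± 0.48), Cebpa (1.21 ± 0.162) and Fabp4 (0.943 ± 0.247). Cebpa and Fabp4 were within their spread of each other there. In day 3 control cultures Lpl (19.3 ± 2.12, n = 4) and Pparg (8.14 ± 1.47) again came first, and Plin4 (2.56 ± 0.639) and Fabp4 (2.1 ± 0.618) were within their spread. In day 3 cKO cultures Fabp4 led at 34 ± 6.46 CPM per kilobase, above Lpl at 13.2 ± 3.38 and Pparg at 12.2 ± 2.75, which did not differ beyond their spread. Plin4 followed at 9.07 ± 2.22 and Cebpa at 5.75 ± 2.8, while Cd36 (1.03 ± 0.4), Adipoq (0.622 ± 0.492) and Plin1 (0.518 ± 0.308) were low and overlapped. Fabp4 was the fifth in order in day 3 control cultures and the first in day 3 cKO cultures.

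Over the 14 cultures, which fall into 4 groups and share 2 count tables, log2 levels of Plin4 followed those of Pparg with a Pearson r of 0.869 and those of Fabp4 with 0.84. Lpl and Fabp4 gave 0.048 and Lpl and Cd36 gave -0.447. The genes whose pattern over the 14 cultures was most like that of Fabp4 were Laptm4b (r = 0.99), Tnn (0.985), Acadl (0.982), Socs5 (0.982) and Plekha2 (0.981). For Pparg they were Hlx (0.981), Hoxc13 (0.977), Unc13b (0.975), Cisd3 (0.969) and Procr (0.965). These correlations describe groups that differ in mean and carry no test.

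In cartilage no member was called different between genotypes. Only Fabp4, Lpl and Cd36 passed the filter, and 0 of 3 were called by edgeR, beside 6.19% of 8793 genes called; 1 of the 3 (Lpl) had an unadjusted p under 0.05, as 21.7% of genes did. DESeq2 also called 0. The median over these 3 was -0.29, beside 0.01 over all genes. All 4 control libraries lay in one sequencing pool and all 4 cKO libraries in another, so pool and genotype cannot be told apart here. The 8 chondrocyte markers summed to 61800 to 93300 CPM in control and 28100 to 57100 CPM in cKO cartilage.

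Lpl had the largest difference of the 3 in cartilage. It was at 25.5 and 54.6 CPM in control males, 28.4 and 51 CPM in control females, 11.8 and 25.4 CPM in cKO males and 28.5 and 19 CPM in cKO females. The highest cKO sample reached the lowest controls, so the groups overlapped. The fitted log2 difference by edgeR was -0.94 (SE 0.289, adjusted p = 0.0691). Lpl passed the threshold in 5 of 15 alternative fits, including those without cKO replicate 2 (adjusted p = 0.0492), without control replicate 1 (0.036) and without control replicate 3 (0.034). Fabp4 was at 24.8, 22.2, 20.2 and 36.6 CPM in control and at 8.4, 28.9, 30.3 and 19.8 CPM in cKO samples (log2 -0.29, SE 0.295, adjusted p = 0.604). Cd36 was at 15, 5.97, 12.8 and 11.8 CPM in control and at 10.9, 14, 9.81 and 4.31 CPM in cKO samples (log2 -0.26, SE 0.348, adjusted p = 0.712). The genotypes overlapped for both genes. Cultures and cartilage were sequenced by different methods, and their levels are not compared.

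**Figure D3:**
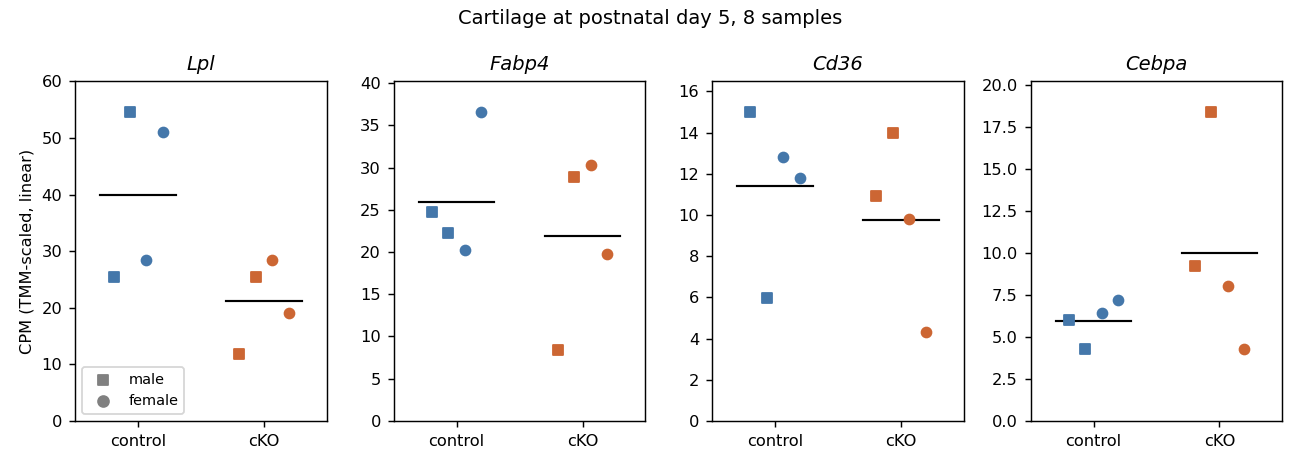
TMM-scaled CPM (linear axes that differ between panels) of Lpl, Fabp4, Cd36 and Cebpa in the 8 cartilage samples, squares for males, circles for females and a line for each mean of 4. The cKO samples reached the control range in all 4 genes, and Lpl averaged 21.2 CPM in cKO against 39.9 CPM in control.

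Of the remaining members listed in cartilage, Cebpa was above the floor in every library and the others were at it. Cebpa held 34 summed counts in control (5.97 ± 1.24 CPM, SD, n = 4) and 46 in cKO (9.98 ± 5.97 CPM), and did not pass the filter. Pparg held 0 to 2 counts in every library, Adipoq 0 or 1, Cidec 0 or 1 and Plin1 0 to 3, so all 4 were at the floor throughout this table, and a difference was not detectable in it. The second deposited table of the same samples, with estimated counts, held 11 to 18 rounded counts of Plin1 in every library, so its level depended on the table. In that table neither Plin1 (log2 0.11, adjusted p = 0.879) nor Cebpa (log2 0.57, adjusted p = 0.434) was called. The 8 endothelial markers summed to 84.8 to 160 CPM in control and 54.3 to 123 CPM in cKO cartilage, with 6 of 8 above the floor in every library of each genotype. Macrophage markers summed to 47.3 to 91.6 CPM in control and 35.3 to 92.8 CPM in cKO, with 5 and 4 of 8 above the floor in every library. The 7 osteoclast markers, of which 6 were listed, summed to 126 to 457 CPM in control and 58.8 to 119 CPM in cKO, with no overlap, and Acp5, Mmp9 and Ctsk, the 3 tested, were all called lower (median log2 -3.42). The 8 skeletal muscle markers, of which 6 were listed, summed to 5.5 to 8.26 CPM in control and 13.4 to 46.4 CPM in cKO. In each genotype 1 of the 8 was above the floor in every library, and the 1 tested was called higher (log2 1.44). The 6 fibroblast and adipose progenitor markers summed to 1790 to 2310 CPM in control and 1410 to 2840 CPM in cKO. Of 4 tested, 1 was called higher and 0 lower. The part of these cells in the cartilage values was not tested. The sex by genotype interaction was called in 0 of 4 members tested by edgeR, beside 0.0103% of 9687 genes, and in 0 at an unadjusted p under 0.05, beside 4.83% of genes.

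Around the 10 genes, 8 lists of 101 further genes in lipid metabolism and fat cell formation were examined. Over all genes tested, 33.0% were called higher and 31.6% lower at day 0, 25.5% and 22.6% at day 3, and 3.15% and 3.04% in cartilage, and each list's count is to be read against these shares. Genes for making fatty acids were mostly lower in cKO. Of 9 fatty acid synthesis genes tested, 6 were lower and 1 higher at day 0, and 5 were lower and 1 higher at day 3. In cartilage 5 of 8 were lower and 0 higher, beside the lower osteoclast and chondrocyte markers given above, whose part was not tested. The median log2 difference of this list was -0.43 at day 0, -0.37 at day 3 and -0.73 in cartilage, beside 0.01 over all genes each time. Scd1, which makes monounsaturated fatty acids, fell in cKO by 2.02 on the log2 scale at day 0 (SE 0.0681, adjusted p = 3.69e-08), by 1.18 at day 3 (SE 0.17, adjusted p = 0.000702) and by 1.37 in cartilage (SE 0.2, adjusted p = 0.000417). Elovl6, a fatty acid elongase, was at 0.434, 0.318 and 0.471 of the control level in the same order (adjusted p = 5.15e-08, 0.00115 and 0.00217). Acaca, the first committed enzyme of the pathway, was log2 -1.14 at day 0 and -1.68 at day 3 (adjusted p = 1.6e-08 and 5.62e-05). Acly, which supplies acetyl-CoA, was the gene called higher at day 3 (log2 0.69, SE 0.124, adjusted p = 0.00219).

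Of 18 further regulators of fat cell formation tested at day 0, 5 were higher and 6 lower, shares near those over all genes. Of 17 at day 3, 4 were higher and 3 lower, and 11 were called without cKO replicate 4. Srebf1, a transcription factor that drives fatty acid synthesis genes, was at 0.505 of the control level at day 0 and 0.501 at day 3, with adjusted p = 6.96e-06 and 9.55e-05. Klf15, which acts late in fat cell formation, was lower at both days (log2 -1.62 and -2.11, adjusted p = 1.66e-05 and 0.000168), and Ppargc1a, a coactivator of mitochondrial genes, was log2 -3.49 at day 3 (SE 0.277, adjusted p = 3.74e-05). Cebpd, which acts early in fat cell formation, was higher at day 3 (log2 1.04, SE 0.144, adjusted p = 0.000586). In cartilage 2 of 12 were lower (Klf5, log2 -0.56, and Cebpd, log2 -0.58) and 0 higher, and the Klf5 call was lost without cKO replicate 1 or 2 or control replicate 1 or 2 (adjusted p from 0.0549 to 0.0706). The groups overlapped for Cebpd, and the count of 2 was 0 without cKO replicate 1 or control replicate 1 and 1 without cKO replicate 2 or 3 or control replicate 2 or 4. Of the genes listed as inhibitors of fat cell formation, 7 of 14 were higher and 6 lower at day 0. At day 3, 3 of 13 were higher and 4 lower. The list also holds the WNT antagonist Sfrp1 beside WNT genes, so its counts do not stand for 1 direction of action. The day 3 count of 7 was 4 without control replicate 2 or 3. Dlk1, lower at day 3 (log2 -1.22, adjusted p = 0.0347), lost its call without cKO replicate 2 or any 1 of the 4 control cultures (adjusted p from 0.0505 to 0.0774). Gata2 (log2 1.33) and Wnt10b (1.28) were among those higher at day 0, and Ddit3 was lower at both days (-1.71 and -1.47). No gene of this list was called in cartilage, and 1 of 8 had an unadjusted p under 0.05.

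Of the partners of Lpl, Cd36 and Fabp4 in fatty acid uptake, 1 of 11 was higher and 7 were lower at day 0, and 4 were higher and 3 lower at day 3. The interaction with day was called for 1 of the 11, beside 16.8% of all genes tested. Angptl4, a secreted inhibitor of lipoprotein lipase, was the gene higher at day 0 (log2 1.21, SE 0.177, adjusted p = 0.000262), and at day 3 it was 5.53-fold higher (log2 2.47, SE 0.373, adjusted p = 0.000902). Slc27a1, a fatty acid transporter, was higher at day 3 (log2 1.29, SE 0.376, adjusted p = 0.0204), a call lost without control replicate 1 (0.0546) or 4 (0.0581). Fabp5, a relative of Fabp4, was log2 0.19 at day 0 (adjusted p = 0.153) and 1.04 at day 3 (adjusted p = 0.0154). The lipoprotein receptor Vldlr was lower at both days (log2 -0.64 and -1.09).

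Of 8 other droplet genes tested at day 0, 3 were higher and 5 lower in cKO. Plin2, the droplet coat protein found in most cell types, was 2.38-fold higher at day 0 (log2 1.25, SE 0.07, adjusted p = 7.08e-07) and was not called at day 3 (log2 0.57, SE 0.314, adjusted p = 0.162). Cav1, the caveolar coat protein, was higher at both days (log2 1.33 and 1.63), and the seipin gene Bscl2 was lower at both (-0.57 and -0.65). At day 3, 1 of 9 was higher and 1 lower (4 called without cKO replicate 4), and in cartilage 1 of 6 was lower (Hilpda, log2 -0.61, adjusted p = 0.0271), a call lost without cKO replicate 3 or 4 or any 1 of control replicates 2, 3 and 4 (adjusted p from 0.0575 to 0.0941). Of triglyceride synthesis genes, 2 of 10 were higher and 2 lower at day 0, and 3 of 10 were higher and 1 lower at day 3, with Lpin3, a phosphatidate phosphatase, 4.63-fold higher (log2 2.21, SE 0.121, adjusted p = 6.81e-06) and Acsl1 lower (-0.84). Its relative Lpin1 was the 1 of 8 lower in cartilage (log2 -1.58, SE 0.23, adjusted p = 0.000428).

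Among lipolysis genes, 2 of 7 were higher and 3 lower at day 0, and 1 of 7 was higher and 2 lower at day 3. The day 0 count of 5 was 3 without control replicate 2, and the day 3 count of 3 was 5 without cKO replicate 4. G0s2, an inhibitor of the main triglyceride lipase, was lower at both days (log2 -2.24 and -2.78, adjusted p = 5.98e-07 and 0.000995). None of 6 was called in cartilage by edgeR, where 2 had an unadjusted p under 0.05. Among other fat cell hormones and genes of the hormone response, 2 of 12 were higher and 8 lower at day 0, and 4 of 10 were higher and 3 lower at day 3. Lepr, the leptin receptor, was 4.12-fold higher at day 0 and 5.91-fold higher at day 3 (adjusted p = 2.11e-05 and 0.000263), while its ligand Lep was not counted in any culture. The insulin receptor gene Insr was at 0.498 and 0.573 of the control level (adjusted p = 1.52e-07 and 4.57e-05). None of 9 was called in cartilage, where 4 had an unadjusted p under 0.05.

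**Figure D4:**
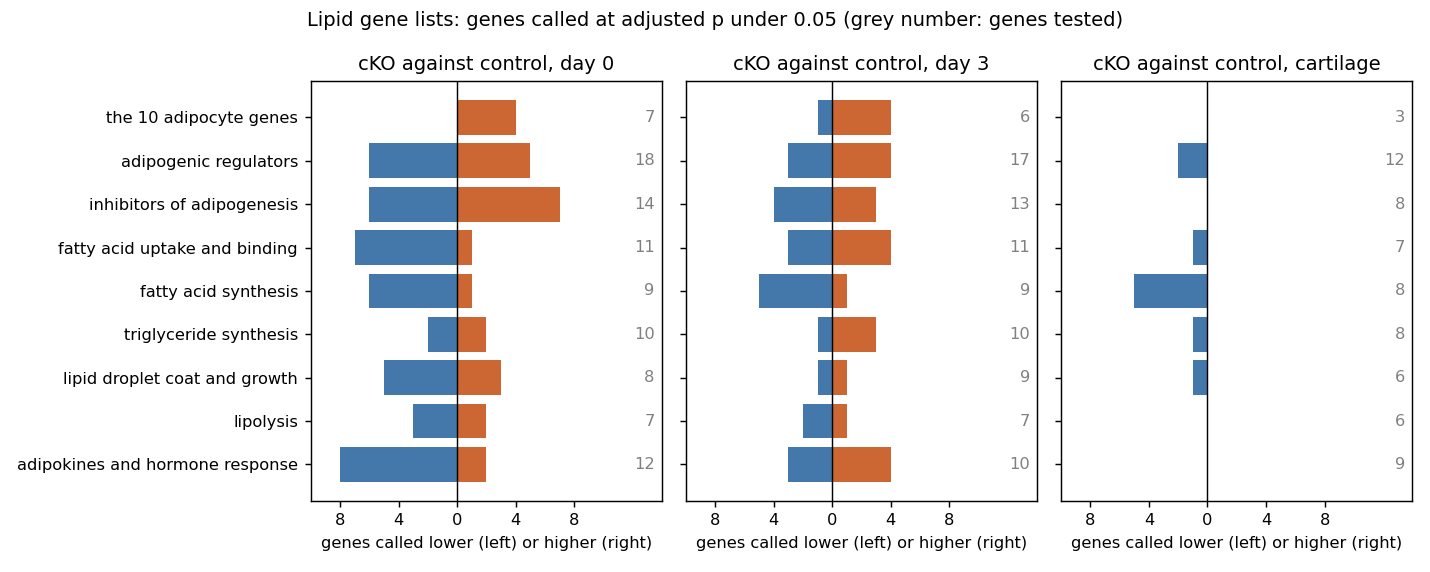
Number of genes called lower (blue, to the left) and higher (orange, to the right) in cKO against control for the 10 genes and 8 related lists, with the number tested in grey; panels are day 0, day 3 and cartilage. The 10 genes have 4 called higher and 0 lower at day 0, while fatty acid synthesis has 6 lower and 1 higher.

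From day 0 to day 3 the fatty acid synthesis list had 6 of 9 lower and 0 higher in control, and 7 of 9 lower and 1 higher in cKO cultures. The droplet list had 4 of 10 higher and 1 lower in control and 5 of 10 higher and 0 lower in cKO cultures. Plin2 rose 5.51-fold in control (adjusted p = 1.67e-05) and 3.38-fold in cKO (adjusted p = 0.000157). Fatty acid uptake genes had 2 of 11 higher and 2 lower in control and 6 of 11 higher and 3 lower in cKO cultures, with Slc27a1 up 5.92-fold in cKO (adjusted p = 4e-05) and 2.44-fold in control (adjusted p = 0.00569). The interaction for Slc27a1 was not called (log2 1.28, SE 0.465, adjusted p = 0.0785). Dlk1, an inhibitor expressed by preadipocytes, fell by 3.72 on the log2 scale in control and fell by 4.43 in cKO cultures (adjusted p = 4e-06 and 1.17e-06).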

How the data were processed

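RNA of 14 chondrocyte cultures (stranded libraries from total RNA) and 8 cartilage samples (barcoded 3′ libraries with molecular identifiers) had been sequenced, per the labels' protocols. For the cultures the authors deposited estimated counts per gene (expected counts, not all whole), one table per day, which were rounded to whole numbers here; the tool that made them is not given in the sources used here. For cartilage the authors deposited whole-number counts, used for the main values, and estimated counts, used as an alternative. The submitters' processing notes name GRCm38 and, for cartilage, UMI-tools 1.1.1, Trim Galore 0.6.7, HISAT2 2.2.1, featureCounts 2.0.1 and DESeq2 1.34.0, without roles, so whether identifiers were collapsed is not known. A deposited list gave each cartilage library's pool. Ribosomal RNA held 9.96 to 23.6% of the whole-number cartilage counts.

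Tests used edgeR 4.0.16 in R 4.3.3 (quasi-likelihood F test, TMM, filterByExpr with 10 counts and 15 in total, Benjamini-Hochberg over all genes tested, threshold 0.05), tested on simulated data. Each of day 0, day 3 and cartilage had its own genotype fit (cartilage with sex as covariate), and the changes between days and the interaction in 1 fit of 14 cultures. SE is the absolute log2 fold change over the square root of F. Symbols, positions and lengths (median of the basic coding transcripts) came from GENCODE M21 on GRCm38, which matched 34652 of 34866 culture identifiers. Alternatives were DESeq2 1.42.0, other size factors, no filter, a replicate block, joint fits, estimated counts, high-count or ribosomal genes left out and each replicate left out. All 10 members are named. Of each related list, at most 4 genes per comparison were eligible by size of change (called, mean log2 CPM of at least 1, no overlap); Fabp5 at days 0 and 3, Cebpd in cartilage, Plin2 at day 3 and the Slc27a1 interaction were added after their values were seen. The members, lists and rules were chosen with earlier results of these data known. The result for 1 gene of the related lists is not reported here.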

Additional observations from a re-analysis of the deposited data

Results flagged for a closer look

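The genotype difference in cultures differed between the days for 2 members, by edgeR's interaction test in the fit of 14 cultures. For Fabp4 the day 3 difference exceeded the day 0 difference by 2.29 on the log2 scale (adjusted p = 0.00311), with cKO above control in every culture at both days. For Cd36 it exceeded it by 5.99 (adjusted p = 0.000265), a size that depends on the prior count because control cultures held 0 to 2 counts at day 3. Cd36 passed the filter on low counts in that fit only through the day 3 cKO cultures, where it was high.

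Among 29 groups of 4 samples, 2 held a sample far from its group, where chance sets about 1 in 20 apart. Plin1 was at 2.62 CPM in cKO cartilage replicate 2 and at 0 in the other 3 cKO samples, and Cidec was at 0.892 CPM in cKO cartilage replicate 3 and at 0 in the other 3. These values stand for 3 counts and 1 count, both at the floor.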

How the results depend on the processing

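With each replicate left out in turn, the number of members called was 3 to 7 at day 3 (3 without cKO replicate 2), 0 to 1 in cartilage and 4 to 6 for the day change in cKO, where it was 4 without day 0 cKO replicate 2 and without day 3 cKO replicate 1 or 2. In cartilage 1 member (Lpl) was called without the expression filter and 1 (Lpl) with the replicate block. The replicate block gave 4 members at day 0, 4 at day 3, 6 for the day change in control and 5 in cKO. Same-numbered samples correlated at -0.24 to 0.265 in their deviations, so the numbers were not taken to pair the samples. The count stayed at 4 at day 0 and at 6 for the day change in control under 12 alternatives each. Direction reversed for the Plin1 day change in control, to -0.05 without day 0 control replicate 2 and -0.02 without day 3 control replicate 1 (-0.05 to 0.78 over the libraries left out). It also reversed for the sex by genotype interactions, to -0.24, -0.55 and -0.20 for Fabp4 (without cKO replicate 3, cKO replicate 1 and control replicate 3) and to -0.03, -0.17, -0.01 and -0.32 for Lpl (the same, then control replicate 2), none of them called; the highest values with a library left out were 1.21 and 0.93. Over all genes, 544 were called in cartilage, against 1044 without the filter, 357 by DESeq2 and 362 without cKO replicate 4. The day 0 fit of all 14 cultures called 6260 genes against 10023. The day interaction called 2509, against 1591 to 1668 without day 0 cKO replicate 3 or day 0 control replicate 2 or 3, and 4051 without day 3 cKO replicate 4. The sex interaction called 1, against 2 to 33 under 4 of 13 alternatives, and 0 of the members in each. In the whole-number cartilage table Pparg, Adipoq, Plin1 and Cidec lay at the floor in every library, and for Plin1 this depended on the table.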
